A study of Mus musculus with 9 samples.

Results

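A group of 7 genes of the unfolded protein response was followed in mouse muscle: the stress sensors Atf6, Atf6b, Ern1 and Eif2ak3, the transcription factor Xbp1, and Creb3 and Creb3l2, membrane-bound factors of the endoplasmic reticulum (ER). They were chosen by name, with earlier results of these data known, so shares over all genes are set beside their counts as a description. The platform annotation assigns them 22 probe sets, the groups of short probes that read a transcript. Of these, 14 passed the filter on low values (a log2 value above 5 in at least 3 arrays), out of 16048 probe sets that passed in all. Each of the 7 genes kept at least 1 probe set and was among 9697 genes tested.

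The unfolded protein response senses misfolded protein in the ER, the compartment where membrane and secreted proteins, MHC class I among them, are folded. IRE1, encoded by Ern1, cuts an intron out of the Xbp1 message so that it encodes an active factor. PERK, encoded by Eif2ak3, phosphorylates eIF2 and slows translation, which favours the factor ATF4. ATF6 and its relatives travel to the Golgi, where proteases release a fragment that enters the nucleus. These steps act on proteins and on splicing, so a transcript level is not a measure of the activity of a sensor.

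The samples were quadriceps femoris, a thigh muscle, of 9 female C57Bl/6 HT transgenic mice in 3 groups of 3, with 1 array each. The study asked how muscle responds when a self MHC class I protein is overexpressed in young or adult animals. In the early group doxycycline ended on day 21 of life and the mice were killed on day 35, so that the transgene was on for 2 weeks. In the late group the drug ended on day 35 and death was on day 50. Control mice received doxycycline until they were killed on day 35. The protocol describes the controls as littermates with a single transgene, although their strain label is that of the induced mice. The promoter and the class I gene of the transgene are not named in the sources used here. Early mice matched the controls in age, whereas age and induction cannot be told apart in late against control. Both induced groups were off doxycycline before death and, if the protocol holds, differed from the controls in transgenes. In either comparison with control, neither of these can be told apart from induction. Early and late mice also differed in age at death, so age and the time of induction cannot be told apart between them. Both comparisons share the 3 control arrays. Beyond calling the controls littermates, the labels do not say what replicates shared, and the p-values measure only the spread between these 9 samples.

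Values are log2 expression, where a difference of 1 is a doubling of the measured signal. Levels are given as mean ± SD (n = 3) and differences as the difference of log2 means ± SE. A gene was called changed at a Benjamini-Hochberg adjusted p under 0.05 in a limma fit across all 9697 genes, and every adjusted p for a gene comes from that fit. Where a gene had several probe sets, the one with the highest mean stood for it.

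The arrays had medians between 3.41 and 3.45. All 10 muscle fibre markers, Ckm, Acta1 and Ttn among them, lay above 5 on every array. They did not move as 1 in the early group. Des read 14.28, 14.33 and 13.28 in early 1, 2 and 3 and 13.46 to 13.57 in controls. Myh2 read 14.76, 14.50 and 13.20 against 14.11 to 14.57. Acta1, Myh1 and Mb were also lowest in early 3, whereas Ckm, Ttn, Myh4, Tnnt3 and Pvalb were highest there. H2-K1, a class I heavy chain gene, was at 10.52 ± 0.34 in control muscle, at 14.66 ± 0.03 in early muscle and at 13.87 ± 0.66 in late muscle. Early 3, early 1 and late 1 lay farthest from their own group means over the tested genes, by 0.310, 0.277 and 0.272 on average against 0.118 to 0.191 in the other arrays. The median of the 6 fibroblast markers relative to controls was 0.05, 0.12 and -0.25 in early 1, 2 and 3, and -0.13 to 0.19 in controls. Macrophage markers also split the early group. The median of the 8 markers above the filter, relative to controls, was 0.91, 0.73 and -0.28 in early 1, 2 and 3. Cd68, a macrophage lysosomal protein, read 12.06, 11.17 and 6.23 in the same order and 6.74 to 7.90 in controls. Cd14, Lyz2, Ptprc and Fcgr3 were likewise above all controls in early 1 and 2 and not in early 3. Cd14 read 7.19, 6.71 and 4.82 against 4.89 to 5.64 in controls. Csf1r was above all controls in early 1 alone. Adgre1 and Mrc1 were closer to the controls. Adgre1 read 7.87, 8.16 and 7.45 in early and 7.48 to 7.78 in control mice, and Mrc1 read 9.56, 9.82 and 9.73 against 9.73 to 10.25. Fat cell markers ran lower, with a median of the 3 passing markers relative to controls of -0.88, -1.84 and -1.22 in early 1, 2 and 3 and of -0.67, 0.24 and -1.17 in late 1, 2 and 3. Adipoq, the adiponectin gene, was lower on every early array than on every control (-1.47 ± 0.39, adjusted p = 0.13). The part of fat cells in the results was not tested. In a bulk sample, more or fewer cells of a type and a change of RNA per cell cannot be told apart.

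Sequences next to the start sites show which letters of the pathway are present around these genes. The ER stress element (ERSE, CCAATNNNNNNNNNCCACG), read by ATF6 and XBP1 together with the factor NF-Y, was searched on both strands in RefSeq promoters of GRCm38.p6, from 250 bases before to 50 after the start. It occurred in 39 of 32851 promoters, or 0.119%. Of the 9 ATF6 targets with an entry, 5 held it. These are known targets of a factor that reads the element, so the count is a description and not a test. The matches are shown because the ATF6 targets were the list with the most calls in early mice, with the fixed CCAAT and CCACG ends in capitals.
Hspa5, chr2:34772025-34772043, plus strand: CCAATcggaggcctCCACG
Calr, chr8:84847075-84847093, plus strand: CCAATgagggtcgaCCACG
Creld2, chr15:88819520-88819538, minus strand: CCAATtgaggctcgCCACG
Derl3, chr10:75893242-75893260, minus strand: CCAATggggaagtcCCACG
Hsp90b1, chr10:86705533-86705551, plus strand: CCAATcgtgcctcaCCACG
Hsp90b1 held a further match. Among XBP1 targets, 3 of 9 with an entry held the element.
Syvn1, chr19:6046532-6046550, plus strand: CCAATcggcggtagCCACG
Pdia6, chr12:17266491-17266509, plus strand: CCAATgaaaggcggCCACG
Dnajc3, chr14:118937827-118937845, plus strand: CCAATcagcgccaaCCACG

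Of the 7 sensor and factor genes, 6 had an entry in that promoter table, and 0 of 6 held an ERSE. The same count of 0 was found for ERSE-II (ATTGG and CCACG set 1 base apart, in 0.0365% of promoters), for the unfolded protein response element (TGACGTGG, 0.676%) and for the cyclic AMP response element (TGACGTCA, 1.79%). ERSE and ERSE-II both contain CCACG and CCAAT (as ATTGG on the other strand), and the complement of TGACGTGG contains CCACG. The shorter CCACG alone occurred in 2 of 6, Creb3 and Ern1, and in 32.8% of all promoters. CCAAT alone occurred in 3 of 6, Atf6b, Creb3l2 and Eif2ak3, and in 37.4%. Creb3, which had the largest early difference from control of the 7 genes, held CCACG at 3 places. How many promoters hold it at 3 places was not counted. Xbp1, with the next largest difference, held neither CCACG nor CCAAT. The 250 bases of Creb3 before the start are shown, with CCACG in capitals (CGTGG where it lies on the other strand).
Creb3, chr4:43562408-43562657, plus strand: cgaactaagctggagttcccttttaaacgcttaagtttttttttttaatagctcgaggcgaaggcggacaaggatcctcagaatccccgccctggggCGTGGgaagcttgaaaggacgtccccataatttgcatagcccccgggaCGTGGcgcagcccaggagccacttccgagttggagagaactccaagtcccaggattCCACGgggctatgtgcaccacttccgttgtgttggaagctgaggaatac
A match is a description of these letters and not a site shown to be bound, and its absence says only that the letters are not in this window.

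In early muscle all 7 transcripts lay above the control mean, by 0.53 to 1.60, but only Creb3 passed the test. On the probe set that stood for each gene, Creb3, Xbp1 and Creb3l2 had differences above 1. The sensors Atf6, Atf6b, Ern1 and Eif2ak3 lay between 0.53 and 0.65 there. That order depended on the probe set, since Atf6 differed by 1.03 on 1456021_at and Xbp1 by 0.67 on 1420012_at. The median difference of the 7 genes was 0.65, beside -0.03 over all genes tested. In this comparison 1 of 7 rose, where 0.928% of all genes rose. An unadjusted p under 0.05 with a higher level was found for 7 of 7, beside 8.64% of all genes. In 6 of 7 every early array exceeded every control array, beside 9.63%, and a difference above 0 was seen for 45.9% of all genes.

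**Figure D1:**
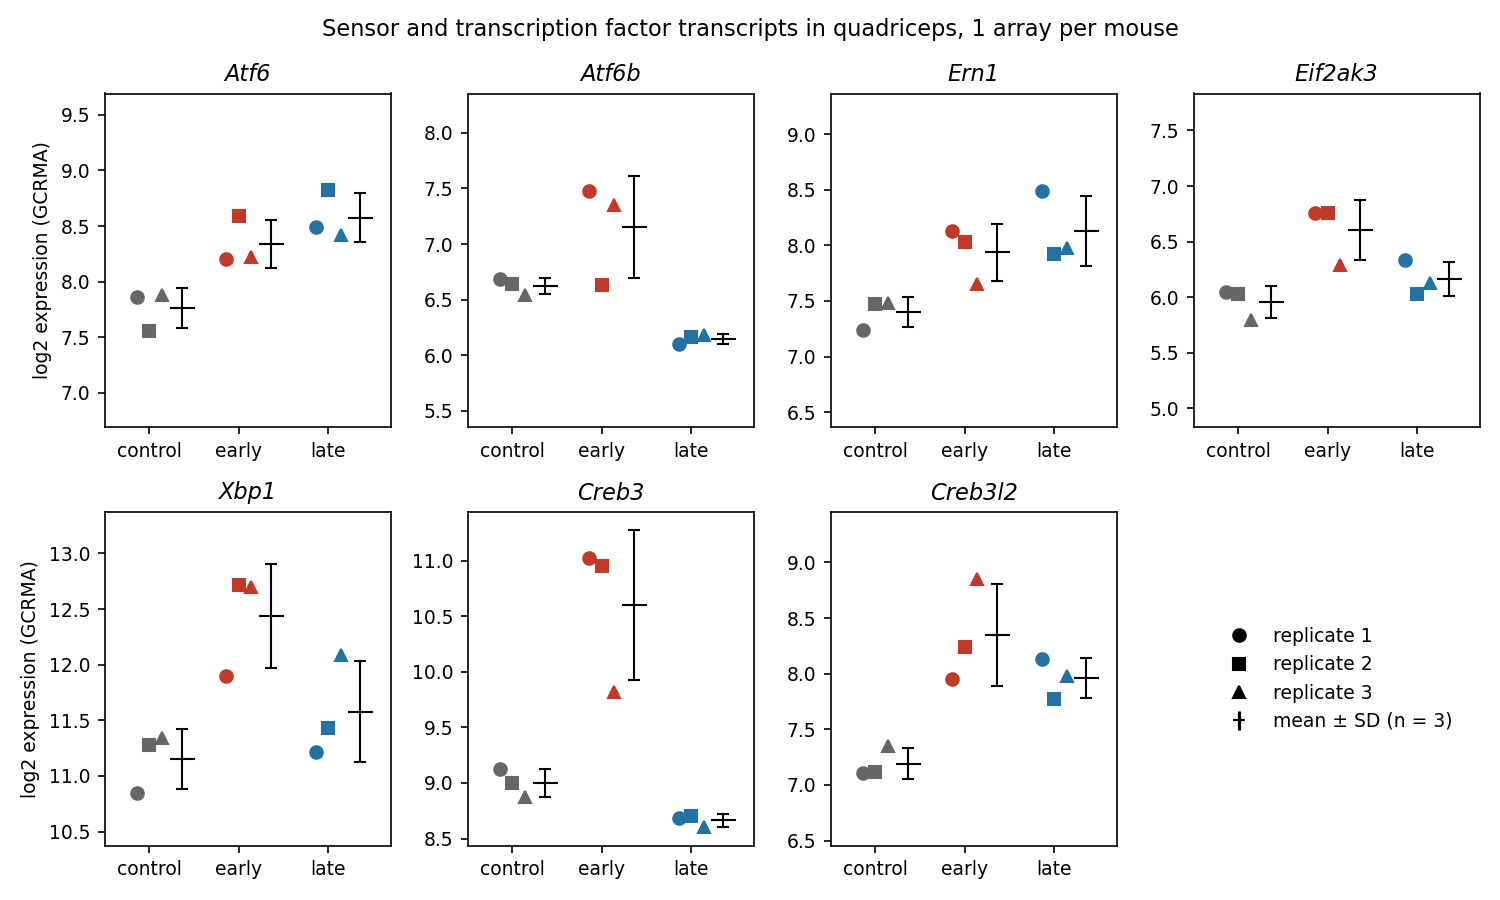
Log2 expression of the 7 genes on each array, by group, with the probe set of the highest mean for each gene. Symbols mark the replicate number and bars the mean ± SD (n = 3), and every panel spans 3 log2 units. Creb3 in early mice lies at 9.82 to 11.02, above all controls, and the late means of Atf6 (8.58) and Ern1 (8.13) lie above their early means (8.34 and 7.94).

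Creb3, a factor related to ATF6 and freed from the ER membrane by proteolysis, had the largest difference. Controls read 9.13, 9.0 and 8.87, early mice 11.02, 10.95 and 9.82, and late mice 8.69, 8.70 and 8.60. Every early array was above every control, and every late array was below every control, with early 3 between the other early mice and the controls. The level of 10.60 ± 0.67 in early against 9.0 ± 0.13 in control muscle was a 3.03-fold rise (1.60 ± 0.29, adjusted p = 0.0394). The call rested on the set of arrays: with early 3 left out the adjusted p was 0.000197, and with any 1 of the other 8 arrays left out it lay between 0.0573 and 0.183. With the replicate number as a block it was 0.0541.

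Late mice stood at 8.66 ± 0.05 for Creb3, which was 0.34 ± 0.29 below controls and did not pass (adjusted p = 0.582). Early mice exceeded late mice by 1.94 ± 0.29, or 3.82-fold (adjusted p = 0.0112). That difference passed with each of the 9 arrays left out in turn (adjusted p from 0.000122 to 0.0463). It did not pass in a fit of these groups alone (adjusted p = 0.0674).

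On the other passing Creb3 probe sets early 3 was again the lowest early array. Probe set 1424740_at rose by 1.54 ± 0.26 in early mice (adjusted p = 0.0373, from the limma fit over 16048 probe sets, which is used for all probe sets). Probe set 1419979_s_at differed by 1.70 ± 0.34 (adjusted p = 0.0649), with 10.57 and 11.01 in early 1 and 2, 9.44 in early 3 and 8.63 to 8.65 in controls. The fourth probe set, 1424742_at, stayed at 1.76 to 1.86 on every array and was below the filter. Early 1 and 2 had the higher Creb3, by 2.02 and 1.95 above the control mean against 0.82 in early 3. They also had the higher macrophage and fibroblast marker medians and the higher Des and Myh2. The part of any of these cell types in the difference was not tested.

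Xbp1, the factor whose message IRE1 splices, was the next largest. On its brightest probe set, 1437223_s_at, controls read 10.84, 11.28 and 11.34, early mice 11.90, 12.71 and 12.70, and late mice 11.22, 11.43 and 12.08. The early arrays were all above the controls, while late 1 lay among the controls, late 2 just above them and late 3 above early 1. The early difference was 1.28 ± 0.29, or 2.43-fold, and did not pass (adjusted p = 0.0896). It passed with the replicate number as a block (adjusted p = 0.0372), with all passing probe sets averaged (0.0443) and without early 3 (0.0452). Late mice were 0.42 ± 0.29 above controls (adjusted p = 0.487). Early mice exceeded late mice by 0.86 ± 0.29 (adjusted p = 0.0833), which passed with the replicate number as a block (adjusted p = 0.0377) and with array weights, in 2 of 18 alternatives. Read without the probe sets that can be shared between transcripts, it was 0.21 (adjusted p = 0.679).

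Other Xbp1 probe sets gave larger and smaller differences. Probe set 1420886_a_at read 10.04, 9.99 and 10.31 in controls, 11.77, 12.20 and 12.22 in early mice and 10.65, 10.37 and 11.53 in late mice. All early and all late arrays were above the controls there, and the early rise of 1.95 ± 0.29, or 3.85-fold, passed (adjusted p = 0.023). Probe set 1420011_s_at rose by 1.69 ± 0.26, or 3.22-fold (adjusted p = 0.0259). The names of these and of the brightest probe set mark probes that can be shared between transcripts. The dimmest, 1420012_at, is not of that kind and differed by 0.67 ± 0.33 (adjusted p = 0.328), with 6.21 to 6.90 in early mice just above the 5.31 to 6.19 of controls. Which stretch of the message each probe set reads is not given in the sources used here, so spliced and unspliced Xbp1 cannot be told apart.

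Plasma cells are known for very high Xbp1, so their genes were read beside it. Of the 9 B and plasma cell markers measured, 2 passed the filter, and the summed level of the list was 10.68 to 11.23 in controls, 7.85 to 11.02 in early and 8.85 to 12.32 in late mice. Cd79a, Mzb1 and Tnfrsf17 lay between 2.05 and 2.44 on all 9 arrays, near the bottom of the scale. Ighm, an immunoglobulin heavy chain and the brightest of the list by group mean, read 10.51 to 11.13 in controls. It read 6.05, 7.12 and 10.92 in early 1, 2 and 3, and 7.86, 11.59 and 12.28 in late 1, 2 and 3. Late 3 was thus the highest array for Ighm and the highest late array for Xbp1. Jchain, the joining chain of secreted antibodies, read 6.41 in late 1 and 2.49 to 2.59 on the other arrays, and Cd79b (3.70) and Ms4a1 (4.61) were also highest in late 1. The part of these cells in the Xbp1 differences was not tested.

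Creb3l2, a membrane-bound factor that supports secretory traffic in cartilage, was read by 2 probe sets. On the brighter one controls read 7.11, 7.11 and 7.35, early mice 7.95, 8.24 and 8.85, and late mice 8.13, 7.77 and 7.98. Every induced array lay above every control, and early 3, the lowest early array for Creb3, was the highest for Creb3l2. The early difference was 1.16 ± 0.23, or 2.23-fold (adjusted p = 0.0554), and the late difference 0.77 ± 0.23 (adjusted p = 0.16), so neither passed.

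The dimmer Creb3l2 probe set, 1437396_at, gave another picture in late mice. It rose by 1.02 ± 0.18 in early mice (adjusted p = 0.0386), with 6.43, 6.14 and 6.81 against 5.37 to 5.52 in controls. Late mice read 5.47, 5.54 and 5.54, a difference from control of 0.08 ± 0.18 (adjusted p = 0.855). Early and late mice differed on it by 0.94 ± 0.18 (adjusted p = 0.0216), whereas the brighter probe set gave 0.39 ± 0.23 (adjusted p = 0.259). The level of Creb3l2 in late muscle therefore depended on the probe set read.

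**Figure D2:**
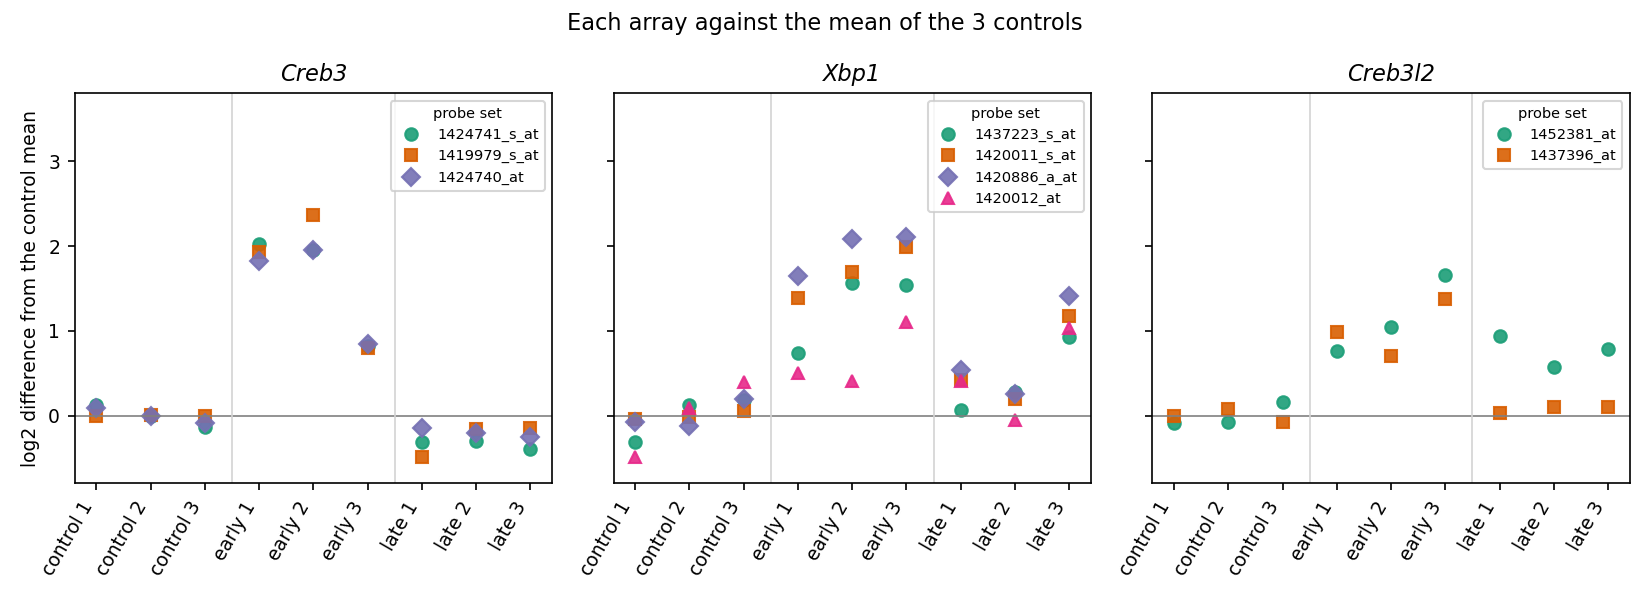
Difference of each array from the mean of the 3 controls, on the log2 scale, for every passing probe set of Creb3, Xbp1 and Creb3l2. Creb3 is lowest in early 3 within the early group and Creb3l2 is highest there, late 3 is the highest late array on all 4 Xbp1 probe sets, and the Creb3l2 probe sets part in the late group.

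On the probe sets that stood for them, the classical sensors had smaller differences in early mice. Atf6, whose released fragment drives ER chaperone genes, read 7.86, 7.56 and 7.88 in controls, 8.20, 8.59 and 8.22 in early mice and 8.49, 8.82 and 8.42 in late mice. All 6 induced arrays lay above the controls. The differences were 0.57 ± 0.18 in early (adjusted p = 0.162) and 0.81 ± 0.18 in late mice (adjusted p = 0.0965), and neither passed. A dimmer probe set, 1456021_at, differed by 1.03 ± 0.28 in early and 0.59 ± 0.28 in late mice (adjusted p = 0.151 and 0.324), so the order of early and late turned with the probe set.

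Atf6b, the close relative of Atf6, was read by 1 probe set. Controls were 6.69, 6.64 and 6.54, early mice 7.47, 6.63 and 7.35, and late mice 6.10, 6.16 and 6.18. Early 2 lay among the controls, the other early arrays above them, and all late arrays below them. Neither the early difference of 0.53 ± 0.21 (adjusted p = 0.236) nor the late difference of -0.48 ± 0.21 (adjusted p = 0.292) passed. Early mice exceeded late mice by 1.0 ± 0.21, or 2.0-fold, which passed (adjusted p = 0.0267). With 1 array left out in turn, it passed without control 1, early 2 or early 3, and did not without control 2 or 3, early 1 or any late array (adjusted p from 0.0502 to 0.082).

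Ern1 rested on 1 of its 5 probe sets, since the other 4 were below the filter. Controls read 7.24, 7.47 and 7.48, early mice 8.13, 8.03 and 7.65, and late mice 8.49, 7.92 and 7.98. All induced arrays were above the controls, by 0.54 ± 0.20 on average in early (adjusted p = 0.214) and 0.73 ± 0.20 in late mice (adjusted p = 0.138). Early and late mice were separated by -0.19 ± 0.20, within their spread.

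Eif2ak3, the gene for PERK, rested on 1 of its 3 probe sets, since the other 2 were below the filter. It read 6.05, 6.03 and 5.79 in controls, 6.76, 6.76 and 6.29 in early mice and 6.33, 6.02 and 6.13 in late mice. All early arrays exceeded all controls, and the late arrays overlapped them. The difference was 0.65 ± 0.17 in early (adjusted p = 0.131) and 0.21 ± 0.17 in late mice (adjusted p = 0.567), and 0.44 ± 0.17 between early and late mice (adjusted p = 0.111). As for Creb3, early 3 was the lowest early array. Probe set 1430371_x_at, below the filter, read 2.88 to 2.95 in controls, 3.81 to 4.22 in early and 2.98 to 3.45 in late mice. Without early 3 the early difference was called for 5 of the 7 genes, Ern1, Eif2ak3, Xbp1, Creb3 and Creb3l2. Without early 1 it was called for Creb3l2 alone, and without any 1 of the remaining 7 arrays for 0 of 7.

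In late against control 0 of 7 genes passed in limma, where 0.206% of all genes did. An unadjusted p under 0.05 with a higher level was found for 3 of 7, Atf6, Ern1 and Creb3l2, beside 8.82% of all genes. The same 3 genes had all late arrays above all controls, beside 16% of all genes. Atf6b and Creb3 had all late arrays below all controls, beside 14.9%. A difference above 0 was seen for 5 of 7 genes and for 51.2% of all genes, and the median of the 7 was 0.42, beside 0.01. Between early and late mice 2 of 7, Creb3 and Atf6b, were higher in early mice, beside 5.31% of all genes, and these were also the 2 of 7 whose groups did not overlap, beside 13.7%.

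Counted by probe set, 5 of 14 rose in early mice, beside 0.879% of all probe sets: 2 of Xbp1, 2 of Creb3 and 1 of Creb3l2. In late mice 0 of 14 passed, beside 0.162%. Between early and late mice 7 of 14 were higher in early mice, beside 5.15%: 3 of Creb3, 2 of Xbp1, and 1 each of Atf6b and Creb3l2. Probe sets of 1 gene read the same message and are not independent of one another.

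**Figure D3:**
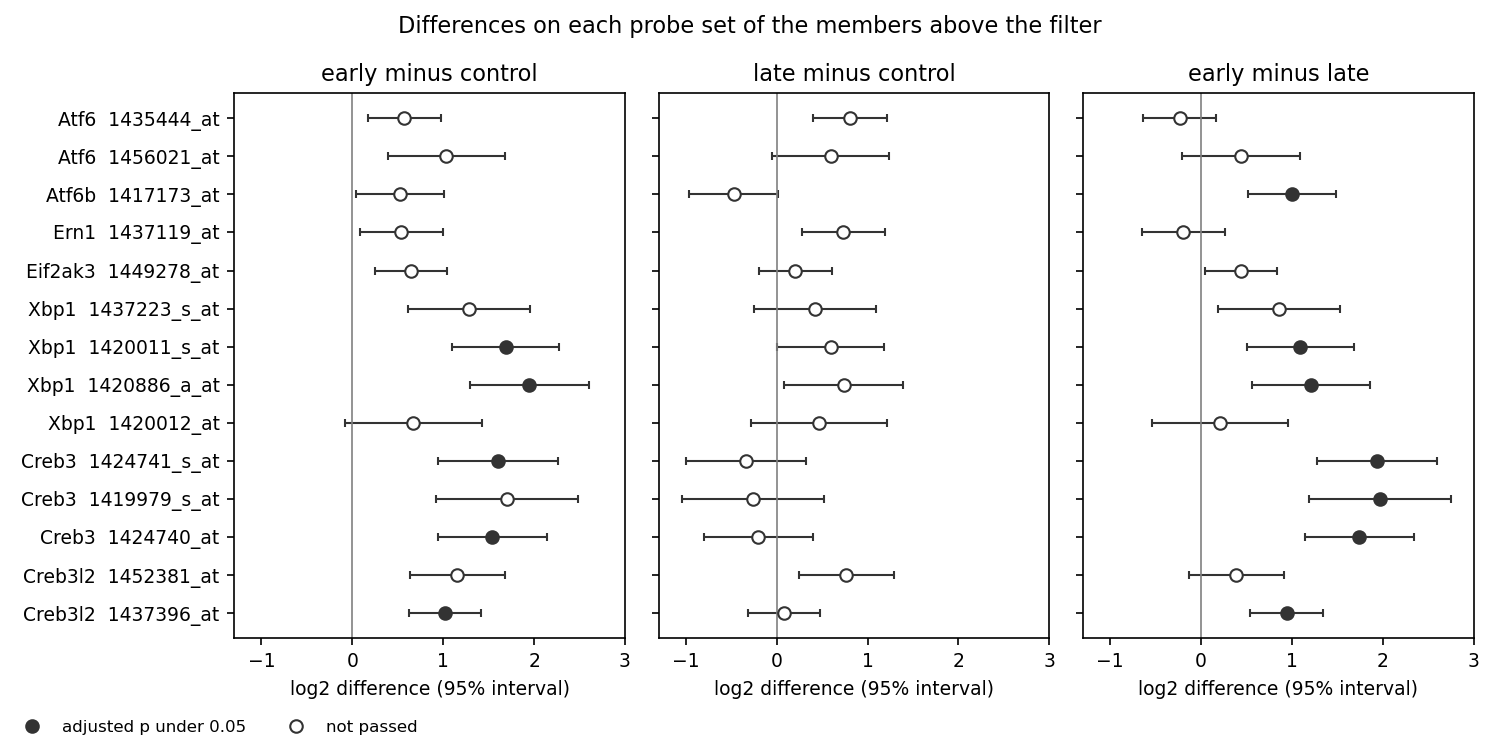
Log2 differences with 95% intervals for the 14 passing probe sets in the 3 comparisons, filled where the adjusted p was under 0.05. In early minus control all 14 points lie above 0 with 5 filled, in late minus control none is filled, and in early minus late 7 are filled, with the 3 Creb3 probe sets farthest to the right.

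The genes that these factors are known to act on were read from lists, which were also chosen with earlier results of these data known. Of 11 known ATF6 targets tested, 10 passed the filter in arrays other than the early ones. In early mice these 10 of 10 rose, where 0.928% of all genes did, with a median difference of 2.28, beside -0.03 over all genes. In late mice 0 of 10 passed in limma, beside 0.206%, with a median of 0.38. Between the induced groups 10 of 10 were higher in early mice, beside 5.31%. Of these, Herpud1 did not pass with the replicate number as a block (adjusted p = 0.0525). Derl3, the remaining target, passed the filter through its early arrays alone and is not counted here, a split made after its values were seen. Creld2, a secreted ER stress protein that carries the ERSE shown, read 8.59, 8.53 and 8.33 in controls, 11.37, 11.61 and 11.27 in early and 8.57, 8.47 and 8.90 in late mice. The early arrays stood apart from both other groups, by 2.93 ± 0.16 from control (adjusted p = 0.000288). Pdia4, a disulfide isomerase, rose by 2.24 ± 0.21 (adjusted p = 0.00352) and Manf, a secreted ER stress protein, by 3.58 ± 0.36 (adjusted p = 0.00511). Derl3, which helps to export misfolded proteins, read 2.17 to 2.26 in controls, under the filter, and 6.45, 7.13 and 5.32 in early mice. Its early level was thus measured and its control level was not, and no fold is given for it.

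Leaving out arrays moved the count of ATF6 targets, here of 11 with Derl3, which is in every count of this paragraph. In early against control it was 7, 3 and 4 of 11 without control 1, 2 or 3, 6 without early 2, and 10 or 11 without any 1 of the other arrays. In early against late it was 6 without early 2, 7 without late 2 and 8 to 11 otherwise.

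Of 10 known targets of spliced XBP1, 5 rose in early mice: Dnajb9, Dnajb11, Pdia6, Sec24d and Syvn1, beside 0.928% of all genes, with a list median of 1.10. Dnajb11, an ER co-chaperone of BiP, rose by 2.04 ± 0.22 (adjusted p = 0.00586) and Pdia6, a disulfide isomerase, by 2.56 ± 0.30 (adjusted p = 0.0082). Dnajb9, a co-chaperone that holds IRE1 inactive, rose by 1.97 ± 0.31 (adjusted p = 0.0251). In late mice 0 of 10 passed (median 0.18), beside 0.206% of all genes, and 6 of 10 were higher in early than in late mice, beside 5.31%. All late arrays lay below all controls for Sec61a1 (-0.64 ± 0.17), Ssr1 (-0.54 ± 0.19) and Sec24d (-0.57 ± 0.21), beside 14.9% of all genes. Their early against late differences thus include a late level below control. All late arrays lay above all controls for Dnajb9 (1.01 ± 0.31) and Dnajc3 (0.50 ± 0.41), beside 16%. Without control 1, 2 or 3 the early count was 3, 0 and 1, without early 2 it was 1, without late 2 it was 3, and without any 1 of the other arrays it was 4 to 7. Late 3, the late array with the highest Xbp1, also had the highest Manf (12.06, beside 11.10 and 10.5) and Pdia6 (10.35, beside 9.22 and 9.37) of its group.

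Among 18 partners and regulators of the sensors, 2 rose in early mice, Hspa5 and Syvn1, beside 0.928% of all genes, with a list median of 0.20. Hspa5 encodes BiP, the chaperone that holds the sensors inactive, and read 13.10, 12.63 and 12.72 in controls, 14.98, 15.27 and 15.17 in early and 13.54, 12.84 and 14.08 in late mice. All early arrays were above all others. The early rise was 5.0-fold (2.32 ± 0.29, adjusted p = 0.00913). Syvn1, a ubiquitin ligase that degrades IRE1 and misfolded proteins, rose by 2.04 ± 0.34 (adjusted p = 0.0314). The count was 0 without control 2, control 3 or early 2, 1 without control 1 or late 2 and 4 without early 3. In late mice 0 of 18 passed, beside 0.206% of all genes. Between the induced groups 3 of 18 were higher in early mice (Hspa5, Syvn1 and Traf2), beside 5.31%, and 1 was lower (Nfyb), beside 6.23%. Traf2, an adaptor that binds IRE1, differed by 1.46 ± 0.35 (adjusted p = 0.0358) and Nfyb, a subunit of NF-Y, by -1.18 ± 0.31 (adjusted p = 0.0448). Both are named after their values were seen. Without early 3 both passed, and without any 1 of the other 8 arrays neither did (adjusted p up to 0.0926 for Traf2 and 0.139 for Nfyb). With the replicate number as a block Nfyb did not pass (adjusted p = 0.0535).

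The PERK and ATF4 branch had 10 tested genes, with medians of 0.18 in early and 0.10 in late mice. In either direction 0 passed in early or in late mice, beside 115 and 20 of all 9697 genes. Atf3, a stress-induced factor of this branch, read 4.91, 5.75 and 6.94 in controls and 8.08, 8.52 and 7.31 in early mice, a difference of 2.10 ± 0.49 that did not pass (adjusted p = 0.0943). Its groups did not overlap, but the controls were spread over more than 2 log2 units. Early mice exceeded late mice for Atf3 by 1.84 ± 0.49 (adjusted p = 0.0455), which passed without control 1, control 3 or early 3 and did not without any 1 of the other 6 arrays (adjusted p up to 0.13) or with the replicate block (0.0669). Ddit3, which encodes CHOP, differed by 0.84 ± 0.23 in early mice (adjusted p = 0.139). Chac1, an enzyme of this branch that degrades glutathione, read 5.13, 6.10 and 7.33 in controls and 7.81, 8.48 and 8.06 in late mice. All late arrays were above all controls, and the difference of 1.93 ± 0.69 did not pass (adjusted p = 0.226).

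Of 6 tested transcripts known to be cut by IRE1, 0 passed in either direction in either induced group. Of all 9697 genes, 115 passed in early and 20 in late mice. The list medians were -0.27 and -0.21. Scara3, a scavenger receptor, read 8.50, 8.18 and 8.19 in controls and 7.54, 7.43 and 7.41 in early mice, a difference of -0.83 ± 0.19 (adjusted p = 0.0896). It was lower in early than in late mice by 0.98 on the log2 scale (-0.98 ± 0.19, adjusted p = 0.0226), beside 6.23% of all genes that were lower there, and this call was lost without early 1 or early 2 (adjusted p up to 0.0677). The 4 tested relatives (Creb3l1 and the eIF2 kinases Eif2ak1, Eif2ak2 and Eif2ak4) held 0 calls against control, beside the same 115 and 20 genes. In late mice all arrays lay above all controls for Eif2ak1 (0.50 ± 0.13, adjusted p = 0.128). They lay below all controls for Creb3l1 (-1.03 ± 0.39, adjusted p = 0.242). Eif2ak1, the heme-regulated kinase, was lower in early than in late mice (-0.61 ± 0.13, adjusted p = 0.0271), a call that was lost without control 2, early 1, early 2, late 1 or late 2 (adjusted p up to 0.0862). The lists share genes (Hspa5, Syvn1 and Dnajc3 among them), so their counts are not independent.

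**Figure D4:**
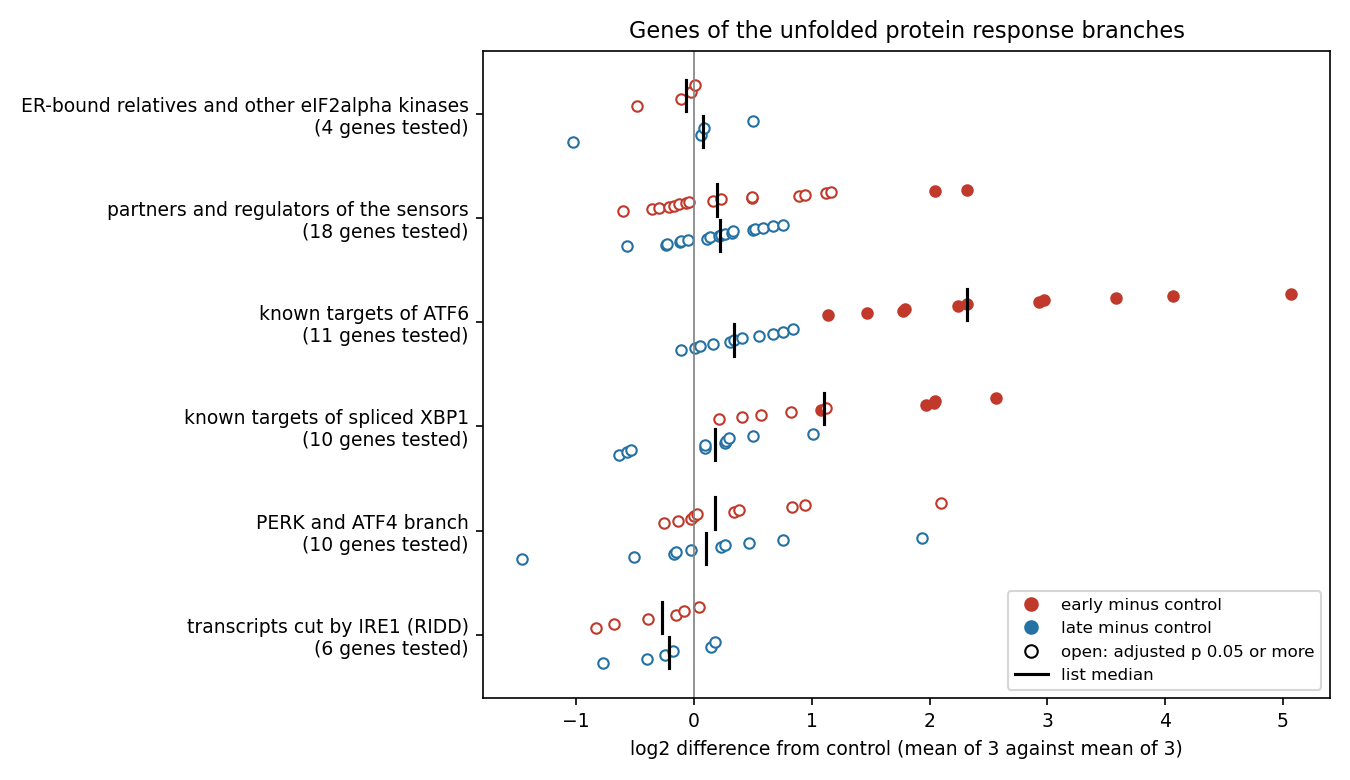
Log2 differences from control for every tested gene of 6 lists, early in red and late in blue, filled where the adjusted p was under 0.05, with list medians as black bars. The 11 ATF6 targets drawn, Derl3 among them, lie between 1.14 and 5.07 in early mice and all are filled, and no late point is filled in any list.

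The genes whose levels followed each transcript most closely over the 9 arrays were ranked by Pearson's r, as a description. Creb3 was followed by Ece2 (r = 0.99), Smyd5 (0.99) and Eif6 (0.98). Xbp1 was followed by Tsr1 (0.98), by Ficd (0.97), an ER enzyme that modifies BiP, and by Magt1 (0.97), a subunit of the N-glycosylation complex. Creb3l2 was nearest to Dnajb9 (0.97), Ufl1 (0.95) and Ccdc127 (0.95). Eif2ak3 was nearest to Clec7a (0.97), a receptor of macrophages and other myeloid cells, then to Trmt112 (0.97) and Tcta (0.96). Atf6 was nearest to Cops2 (0.99), Atf6b to N4bp1 (0.95) and Ern1 to Asb11 (0.98). The 9 points of each coefficient share the 3 groups and the arrays.

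Among themselves the 7 genes fell into different orders over the arrays. Creb3 was closest to Eif2ak3 (r = 0.87) and Atf6b (0.73), Xbp1 to Creb3l2 (0.81), and Atf6 to Ern1 (0.71). Atf6 and Atf6b ran apart (r = -0.33), as Atf6 was highest and Atf6b lowest in late mice.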

How the data were processed

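The authors deposited log2 values made with GCRMA, per the submitters' processing notes. The GCRMA version is not given in the sources used here. GCRMA corrects background by probe base composition and makes the arrays' distributions alike, so a shift of all genes would not be seen, and dim probe sets get nearly equal values. Of 45101 probe sets, 34958 named 1 gene in the platform annotation; those naming several (932) or none (9211) and the 64 control probe sets were left out. The filter was a log2 value above 5 in at least 3 arrays. One model of 3 group means was fitted to all 9 arrays with limma 3.58.1 in R 4.3.3 (6 residual and 2.84 prior degrees of freedom), at gene and at probe set level, with Benjamini-Hochberg adjustment; the script was tested on simulated data. No exact test was used, since 3 against 3 arrays allow no p under 0.1. The number of arrays limits the precision.

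The members, gene lists and tests were chosen with earlier results of these data known. Genes named were the 7 members, up to 4 per list with the smallest p in early and up to 2 in late against control, and the 3 nearest genes per member; a few list members are named beyond these in counts. Same-numbered early and late arrays deviated together (correlations across genes of 0.168, 0.201 and 0.16, each over 0.1), which was taken as pairing, although no label says what they share; early and control (0.35, 0.11 and -0.0391) and late and control arrays (0.0847, -0.165 and -0.11) were not. The main early against late fit has no term for this pairing, which enters only in the alternative with the replicate block. There Atf3, Herpud1 and Nfyb lost their early against late calls. Alternatives varied the filter, probe set choice, scaling, samples, weights, variance prior, replicate block and each array left out. Promoters came from RefSeq GRCm38.p6.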

Additional observations from a re-analysis of the deposited data

Results flagged for a closer look

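Early and late induction were set against each other directly in the limma fit, and the following genes and probe sets differed between them at an adjusted p under 0.05. The mice of these groups also differed in age at death, which cannot be told apart from the time of induction. Of the sensor and factor genes, Creb3 was 1.94 and Atf6b 1.0 higher in early than in late mice on the log2 scale. On single probe sets the same difference was 1.96 (1419979_s_at) and 1.74 (1424740_at) for Creb3, 1.09 (1420011_s_at) and 1.21 (1420886_a_at) for Xbp1, and 0.94 (1437396_at) for Creb3l2. Among the genes of the pathway lists, the sensor regulators Hspa5 and Syvn1 were 1.65 and 1.78 higher in early mice, Traf2 was 1.46 higher, and Nfyb was lower with a difference of -1.18. The ATF6 targets Creld2, Pdia4, Manf and Herpud1 were 2.77, 2.36, 2.83 and 0.95 higher. The fitted difference of Derl3 was 4.06, but its late level was at background under the filter, so the size is not a measured change. The XBP1 targets Dnajb11, Pdia6 and Sec61a1 were 1.75, 2.47 and 1.46 higher, and Atf3 was 1.84 higher. Eif2ak1 and Scara3 were lower in early mice, with differences of -0.61 and -0.98. With 1 array left out in turn, Herpud1 passed in 2 of 9 fits (adjusted p up to 0.131, and 0.0525 with the replicate block). The call of Hspa5 was lost without early 2 (adjusted p = 0.0614), and that of Syvn1 without early 2, late 1 or late 2 (adjusted p up to 0.0739).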

How the results depend on the processing

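Each of the 7 genes kept the sign of its early and late difference from control in all 18 alternatives; the sign of early minus late turned for Atf6 with probe sets averaged (0.10) and for Ern1 with array weights (0.017). In early against control, 115 genes, 1 member and 5 member probe sets were called. These were 56, 0 and 0 with no filter; genes and members were 61 and 0 with only the 2 groups compared and 3335 and 6 with array weights, whose estimation did not converge. With probe sets averaged 3 members were called (Xbp1, Creb3 and Creb3l2). With the replicate block 62 genes and 3 member probe sets, all of Xbp1, were called, and Xbp1 passed in place of Creb3. In late against control, 20 genes and 0 members were called, against 12 genes with 2 groups, 1037 genes and 3 members (Atf6, Ern1 and Creb3l2) with weights and 5 genes with the block. In early against late, 1119 genes, 2 members and 7 member probe sets were called, against 584 genes and 4 member probe sets with no filter, 38 genes and 0 members with 2 groups, and 3534 genes and 4 members with weights. The block added Xbp1 to the early against late calls (adjusted p = 0.0377) and changed no other call of a member gene. With 1 array left out, genes called ranged from 6 to 1756, 5 to 59 and 143 to 2959 in the 3 comparisons, members from 0 to 5, 0 to 0 and 1 to 3, and member probe sets from 0 to 9, 0 to 0 and 0 to 8. The cause of these moves was not tested. Array weights for the list counts were added after seeing the data: 11 ATF6 targets (Derl3 among them), 9 XBP1 targets and 8 partners then rose in early mice.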
